A study of Homo sapiens with 25 samples.

Results

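High dye hiF-T cells were compared with ungated hiF-T cells by bulk poly(A) RNA sequencing. The groups were taken from the sample labels, which gave 4 libraries of cells with high dye accumulation and 4 of ungated cells, or 8 of the 25 libraries in the study. Both groups were of genotype WT with no treatment listed, and each held biological replicates 1 to 4. hiF-T is a fibroblast-like line made from human BJ skin fibroblasts, in which expression of the telomerase gene hTERT can be induced. The 12 other libraries of the sort, taken at low, midlow and midhigh dye with 4 in each gate, entered the statistical fit and are used for comparison, while 5 drug libraries were not used. All groups are the same single line, the labels name no dye, and they do not state which dye level goes with slow division, although the study's design speaks of sorting by proliferation status.

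A dye that is shared out at each division stays brighter in cells that divide less often, and such dyes are used to separate fast from slow dividers. Dividing fibroblasts carry transcripts for DNA replication, switched on by E2F factors around the start of S phase, and transcripts for mitosis, switched on later by the B-MYB and FOXM1 complexes that bind CHR elements. Cells under stress can activate p53, which halts the cycle through p21, the NRF2 pathway against oxidants, and the integrated stress response, in which ATF4 and its partners raise genes of amino acid supply.

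Each library held 15027581 to 18341196 counts in genes, so that 0 counts of a gene allow a true level of 3 counts (a limit of 0.164 to 0.200 CPM, counts in a library of 1e+06, for counting error only). Mitochondrial genes took 2.39% to 2.91% of the counts. All 12 fibroblast marker genes were measured, and their summed level was 9416 to 11695 CPM in high dye and 8992 to 10608 CPM in ungated libraries. By edgeR 0 of these 12 were called, with 1 higher and 2 lower at an unadjusted p under 0.05, and DESeq2 called 1 lower. Of 12 markers of myeloid, lymphoid and erythroid cells 10 stayed under 1 CPM in all 8 libraries and 3 were at 0 in all of them, and their sum was 1.15 to 2.28 CPM in high dye and 0.860 to 2.00 CPM in ungated libraries. Ungated replicate 3 stood apart from the low and midlow gates of its number. Its residuals correlated at 0.146 with low and 0.181 with midlow dye replicate 3, against 0.338 to 0.618 for all other same-numbered pairs. With high and midhigh dye replicate 3 they correlated at 0.344 and 0.354, inside that range. Results are also given without ungated replicate 3.

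Sequences at the start sites of 5 genes are shown for some of the groups that moved. They are cell cycle genes among the lower ones and an integrated stress response gene among the higher ones. No p53 motif was searched, although 23 of 30 listed p53 targets were higher. The sequences come from RefSeq (GRCh38.p14) and run from 250 bases before to 50 bases after the start site on the coding strand. Each carries in capitals the searched motif. For ORC1 and CLSPN it is an E2F core (TTGGCGC or TTCCCGC), for MKI67 and KIF11 the CHR element (TTTGAA), and for CHAC1 the amino acid response element (TTGCNTCA), each searched on both strands.
ORC1, chr1:52404374-52404673, minus strand: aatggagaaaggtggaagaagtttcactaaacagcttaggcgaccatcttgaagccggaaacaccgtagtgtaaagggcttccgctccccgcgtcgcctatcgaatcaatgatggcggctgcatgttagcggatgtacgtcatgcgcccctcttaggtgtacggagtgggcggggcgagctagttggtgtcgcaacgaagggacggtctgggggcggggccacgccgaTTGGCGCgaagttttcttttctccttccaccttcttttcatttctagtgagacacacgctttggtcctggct
CLSPN, chr1:35769929-35770228, minus strand: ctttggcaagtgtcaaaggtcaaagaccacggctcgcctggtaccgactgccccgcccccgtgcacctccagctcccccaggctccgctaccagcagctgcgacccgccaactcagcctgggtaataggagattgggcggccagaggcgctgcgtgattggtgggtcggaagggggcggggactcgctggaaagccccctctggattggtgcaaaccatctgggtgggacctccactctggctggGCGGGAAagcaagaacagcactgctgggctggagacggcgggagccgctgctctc
MKI67, chr10:128126374-128126673, minus strand: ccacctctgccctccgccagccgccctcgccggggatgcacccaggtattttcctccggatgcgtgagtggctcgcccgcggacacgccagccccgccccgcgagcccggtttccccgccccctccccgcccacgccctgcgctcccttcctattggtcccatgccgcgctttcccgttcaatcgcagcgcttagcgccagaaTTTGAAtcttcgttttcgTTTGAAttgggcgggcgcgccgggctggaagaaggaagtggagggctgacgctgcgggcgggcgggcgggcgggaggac
KIF11, chr10:92592880-92593179, plus strand: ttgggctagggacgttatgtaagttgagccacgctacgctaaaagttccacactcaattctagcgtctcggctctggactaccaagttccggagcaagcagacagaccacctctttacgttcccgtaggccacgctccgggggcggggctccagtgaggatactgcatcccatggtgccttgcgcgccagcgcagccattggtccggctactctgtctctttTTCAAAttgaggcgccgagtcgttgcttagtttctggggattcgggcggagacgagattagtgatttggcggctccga
CHAC1, chr15:40953221-40953520, plus strand: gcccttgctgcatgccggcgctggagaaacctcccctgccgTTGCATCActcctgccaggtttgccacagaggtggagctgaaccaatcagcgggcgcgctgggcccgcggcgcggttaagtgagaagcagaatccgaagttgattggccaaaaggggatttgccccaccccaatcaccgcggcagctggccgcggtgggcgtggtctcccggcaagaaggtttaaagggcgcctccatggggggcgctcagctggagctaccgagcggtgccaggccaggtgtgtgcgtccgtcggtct
The first motif base lay 22 bases before the start in ORC1, 5 before it in CLSPN, 47 and 29 before it in MKI67, 28 before it in KIF11 and 209 before it in CHAC1. In CLSPN and KIF11 the motif reads on the opposite strand. An E2F core was found in 39 of 70 promoters of 52 listed DNA replication genes (55.7%), against 9.23% of all 35116 promoters and 13.3% of the promoters of tested genes. The CHR letters were in 44 of 73 promoters of 58 listed G2 and mitosis genes (60.3%), against 15.2% of all 35116 promoters and 1692 of 15376 promoters of tested genes. The amino acid response letters were in 2 of 31 promoters of the integrated stress response list (6.45%), against 3.22% of all promoters and 2.48% of those of tested genes. They were also in 4 of 28 promoters of a list of NRF2 and iron genes (14.3%). These matches describe the letters in the window and are not measured binding sites.

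In high dye cells 534 genes were higher and 573 were lower than in ungated cells, out of 14592 tested, at a Benjamini-Hochberg adjusted p under 0.05 in edgeR's quasi-likelihood test with the replicate number as a block. These are 3.66% and 3.93% of the genes tested, 7.59% together, the background against which the counts of gene groups stand. The higher genes included 23 of 30 p53 targets and 16 of 24 genes of the integrated stress response, and the lower genes included 32 of 60 DNA replication genes and 42 of 68 genes of G2 and mitosis. In these 4 lists edgeR and DESeq2 called 0 genes in the other direction, and 0 had an unadjusted p under 0.05 that way. The higher calls held the larger changes. Of them, 92 were at least 2-fold higher, while 8 of the lower calls reached 2-fold, and the median log2 fold changes were 0.43 and -0.35. All 4 same-numbered pairs moved the same way for 475 of the higher and 521 of the lower genes. The 4 high dye values lay wholly outside the range of the 4 ungated values for 103 of the higher and 123 of the lower genes, so most called genes overlapped between the groups. These counts of pairs and of overlap describe called genes only, since calling itself favours genes whose pairs agree. The matching shares over all genes tested were not worked out. The median over all genes tested was 0.00.

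How many genes were called depended on which libraries were used. Without ungated replicate 3 the counts were 305 higher (2.05% of genes tested) and 237 lower (1.6%), 3.65% in all, and 481 of these 542 were also called with it. When high dye replicate 1 was left out, 82 genes were higher (0.554%) and 14 lower (0.0946%), or 0.649% in all. When high dye replicate 3 was left out, 99 were higher (0.67%) and 14 lower (0.0948%), or 0.765% in all. With the 8 compared libraries alone in the fit, 153 were higher (1.1%) and 67 lower (0.48%), or 1.58% in all. Leaving out high dye replicate 2 gave 722 higher and 944 lower, and leaving out high dye replicate 4 gave 710 and 882. Leaving out ungated replicate 1, 2 or 4 gave 198, 566 and 391 higher and 115, 581 and 354 lower. The counts of gene lists given below for each setting stand against these counts over all genes. With no block for the replicate number 1 gene was called (0.00685%), ASTN2, and 1543 genes had an unadjusted p under 0.05. None of the 1107 called genes had the opposite sign in any of these fits, as far as each fit gave a value. These genes were chosen by their calls in mostly the same libraries, so a kept sign is not independent evidence.

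**Figure D1:**
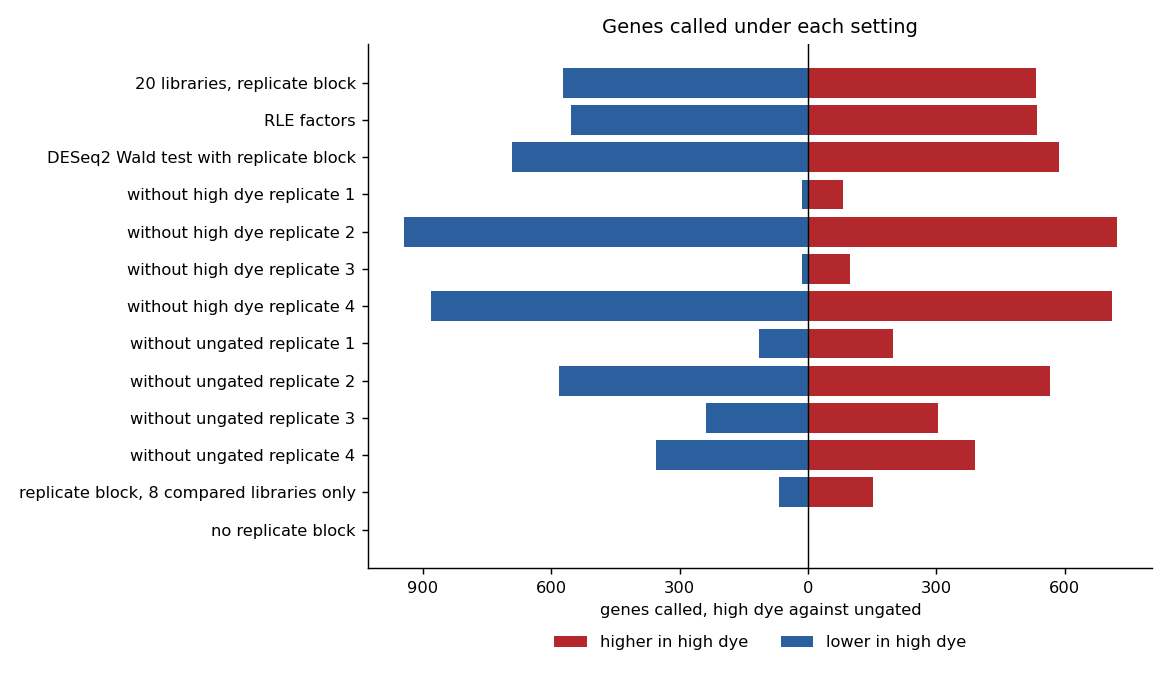
Number of genes called (adjusted p under 0.05) in high dye against ungated cells under 13 settings, with genes higher in high dye to the right of 0 and genes lower to the left. The bars are shortest with no replicate block (1 higher, 0 lower) and without high dye replicate 1 (82 and 14) or 3 (99 and 14).

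DNA replication genes were lower in high dye cells. Of 60 listed genes, all tested, 32 fell and 0 rose, with a median log2 fold change of -0.46. In bulk RNA, fewer cells in S phase and less of these transcripts per cell cannot be told apart. By role, 17 of 23 genes of origin licensing and firing fell, as did 11 of 27 of DNA synthesis and the replication fork, 3 of 6 of nucleotide supply and 1 of 4 E2F factors. ORC1, the largest subunit of the complex that marks origins (ENSG00000085840, chromosome 1, 52372829 to 52404459, GRCh38), stood at 12.3, 17.8, 10.9 and 18.97 CPM in high dye replicates 1 to 4, against 21.4, 25.1, 18.2 and 26.2 CPM in ungated replicates 1 to 4. High dye was lower in all 4 pairs, and the groups overlapped at a single point, with high dye replicate 4 just above ungated replicate 3. The log2 fold change of ORC1 was -0.60 ± 0.15 (SE), with an adjusted p of 0.0192 in edgeR's quasi-likelihood test. CLSPN, the adaptor through which stalled forks activate CHK1 (ENSG00000092853, chromosome 1, 35720218 to 35769967), was at 35.6, 57.5, 28.7 and 60.1 CPM in high dye, against 81.8, 76.1, 57.1 and 76.05 CPM in ungated replicates 1 to 4, a log2 fold change of -0.69 ± 0.15 (adjusted p = 0.0101 in edgeR). High dye replicates 1 and 3 were the lowest of the 8 libraries for CLSPN, and high dye replicates 2 and 4 lay level with or above ungated replicate 3.

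MCM2, a subunit of the replicative helicase, averaged 75.4 ± 27.97 CPM in high dye and 108 ± 20.9 CPM in ungated libraries (SD, n = 4 each), a log2 fold change of -0.54 ± 0.15 with an edgeR adjusted p of 0.0313. POLE2, a subunit of the leading-strand polymerase, changed by -0.65 ± 0.15, PRIM1, the catalytic subunit of primase, by -0.65 ± 0.18, and E2F8, a repressor that E2F activators induce, by -0.68 ± 0.20 on the log2 scale. PCLAF, a small protein that binds the sliding clamp PCNA, was at 11.05, 18.2, 9.49 and 20.5 CPM in high dye, against 25.2, 22.95, 22.5 and 25.5 CPM in ungated replicates 1 to 4. The groups did not overlap for PCLAF, whose ungated values were close together while the high dye values spread, with replicates 1 and 3 lowest. Its log2 fold change was -0.72 ± 0.15 (adjusted p = 0.0115 in edgeR). The calls of this list, like lower calls over all genes, rested on high dye replicates 1 and 3. Without either one edgeR called 0 of 60, while 14 of all genes tested were lower (0.0946% and 0.0948%). The edgeR adjusted p of ORC1 was then 0.102 and 0.107. The count was 2 without ungated replicate 1, 18 without replicate 3 and 15 without replicate 4 of that group, 50 and 49 when high dye replicate 2 or 4 was left out, and 0 with no block, while the median stayed between -0.58 and -0.35 in all 18 alternatives.

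Genes of G2 and mitosis were lower by a similar amount. Of 68 listed and tested, 42 fell and 0 rose, and the median log2 fold change was -0.47. All 68 had a value below 0. By role, 12 of 20 kinases, cyclins and regulators fell, 26 of 43 spindle, kinetochore and checkpoint genes, and 4 of 5 condensin genes. MKI67, the proliferation antigen Ki-67 that coats mitotic chromosomes (ENSG00000148773, chromosome 10, 128096659 to 128126385), stood at 270.0, 456, 229 and 526 CPM in high dye, against 512, 509, 501 and 674 CPM in ungated replicates 1 to 4. High dye replicates 1 and 3 were far below every other library, while replicates 2 and 4 fell within or near the ungated range, so the groups overlapped. Its log2 fold change was -0.62 ± 0.15 with an edgeR adjusted p of 0.0204.

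KIF11, the kinesin that pushes spindle poles apart, was at 88.9, 143, 79.1 and 159.6 CPM in high dye, against 174, 147, 169 and 186 CPM in ungated replicates 1 to 4, and changed by -0.56 ± 0.13 (adjusted p = 0.0178 in edgeR). In replicate 2 the KIF11 values of the groups were nearly equal, and the difference was widest in replicates 1 and 3. BIRC5 (survivin, a chromosomal passenger) changed by -0.56 ± 0.15, NCAPH (a condensin subunit) by -0.57 ± 0.15 and TOP2A (the topoisomerase that untangles chromosomes) by -0.42 ± 0.12 on the log2 scale. TOP2A was lower in 3 of 4 pairs. By edgeR 0 of the 68 passed when high dye replicate 1, high dye replicate 3 or ungated replicate 1 was left out, where the adjusted p of MKI67 was 0.115, 0.117 and 0.0682. Without ungated replicate 3 the count was 10, MKI67 and TOP2A not among them (adjusted p = 0.0519 and 0.112 in edgeR), and it was 20 without ungated replicate 4, 8 with the 8 compared libraries alone, and 65 or 66 when high dye replicate 2 or 4 was left out.

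**Figure D2:**
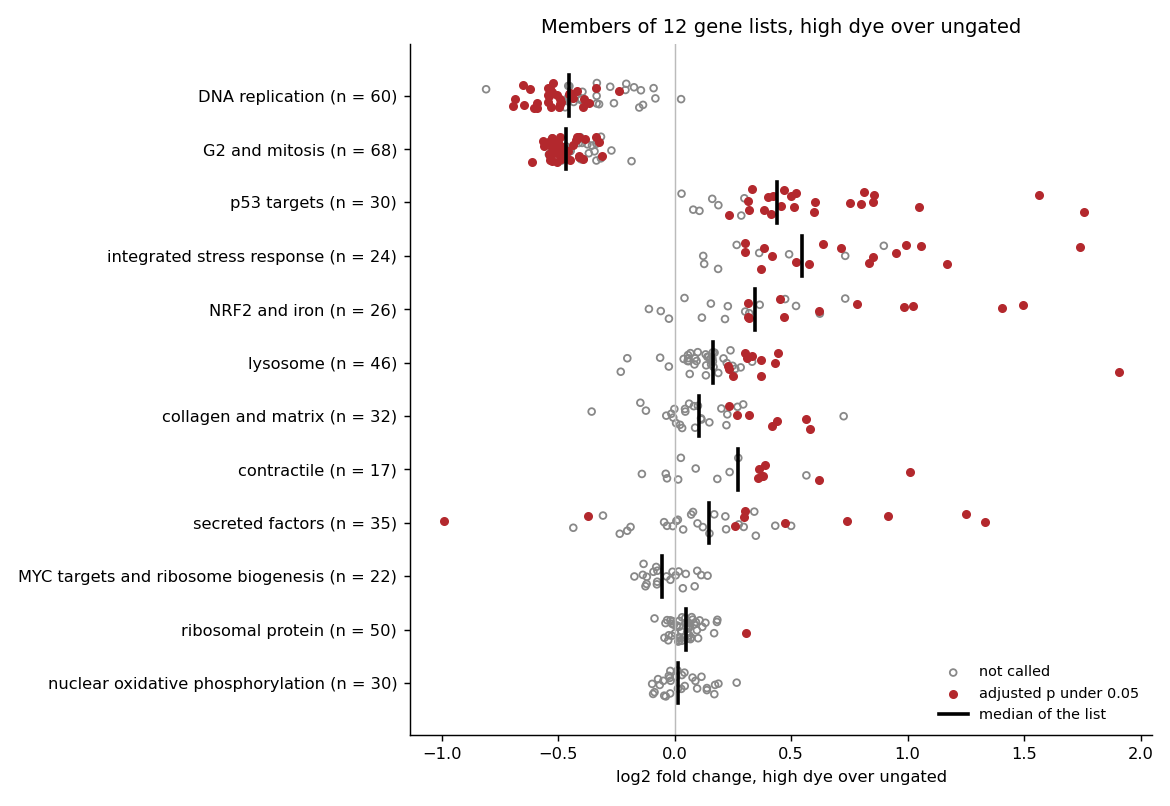
Log2 fold change, high dye over ungated, of each tested member of 12 gene lists (1 point per gene, filled red where the adjusted p was under 0.05) with the list median as a black bar. DNA replication (median -0.46) and mitosis genes (-0.47) lie left of 0, p53 targets (0.44) and integrated stress response genes (0.55) lie right of it, and ribosomal protein genes (0.05) are close to 0.

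p53 targets were higher in high dye cells. Of 30 listed and tested, 23 rose and 0 fell, with a median of 0.44. The genes that act in cell cycle arrest and p53 feedback rose in 13 of 15 cases, those of apoptosis and death receptors in 7 of 10, and those of DNA repair and nucleotide supply in 3 of 5. CDKN1A, which encodes the cyclin-dependent kinase inhibitor p21 (ENSG00000124762, chromosome 6, 36676460 to 36687339), was at 1072, 596, 1226 and 569.7 CPM in high dye, against 406, 324, 485 and 409 CPM in ungated replicates 1 to 4. Every high dye value lay above every ungated value, and high dye replicates 1 and 3 were clearly above 2 and 4. The log2 fold change of CDKN1A was 1.05 ± 0.15, or 2.07-fold, with an edgeR adjusted p of 0.000872 and a range of 6.36e-06 to 0.00876 when each of the 8 libraries was left out in turn. GDF15, a stress-induced cytokine of the TGF-beta family (ENSG00000130513, chromosome 19, 18374731 to 18389176), stood at 299, 123, 349.9 and 116 CPM in high dye, against 89.1, 51.3, 72.2 and 63.3 CPM in ungated replicates 1 to 4. Here too the groups did not overlap, with the same 2 high dye libraries on top, and the log2 fold change was 1.56 ± 0.21 (adjusted p = 0.000643 in edgeR).

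BTG2, an antiproliferative factor, was at 17.4, 11.3, 23.7 and 7.07 CPM in high dye, against 4.30, 3.42, 4.99 and 4.09 CPM in ungated replicates 1 to 4, the largest change of the list at 1.76 ± 0.22 (adjusted p = 0.000462 in edgeR). The BTG2 values did not overlap between groups and were tight in ungated cells. BBC3, which encodes the pro-apoptotic protein PUMA, changed by 0.85 ± 0.16 on the log2 scale with 9.94 ± 4.12 CPM in high dye and 5.28 ± 0.907 CPM in ungated libraries (SD, n = 4 each). Among 8 cyclin-dependent kinase inhibitor genes, CDKN1A and CDKN2B (p15, log2 fold change 0.61 ± 0.15) rose and none of the others passed. The median of these 8 genes was -0.09, with 5 of them below 0. At an unadjusted p under 0.05 in edgeR 3 were higher and 3 lower. When high dye replicate 2 or 4 was left out 2 were called lower, and 1 without ungated replicate 2. The number of p53 targets called was 9 or 8 when high dye replicate 1 or 3 was left out, 12 without ungated replicate 1 and 17 without ungated replicate 3. With the 8 compared libraries alone in the fit it was 15.

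The integrated stress response list had a median of 0.55, with 16 of 24 genes higher and 0 lower. Both its regulatory factors (7 of 9) and their targets in amino acid and glutathione metabolism (9 of 15) took part. CHAC1, an enzyme that degrades glutathione (ENSG00000128965, chromosome 15, 40952962 to 40956519), was at 21.7, 6.52, 15.1 and 7.07 CPM in high dye, against 10.03, 3.69, 4.46 and 3.68 CPM in ungated replicates 1 to 4. Each high dye library was above the ungated library of its number, by the least in replicate 2, and the groups overlapped through the high ungated replicate 1. The log2 fold change was 1.17 ± 0.15 with an edgeR adjusted p of 0.000462. ATF3, a stress-induced transcription factor (ENSG00000162772, chromosome 1, 212565334 to 212620777), stood at 27.6, 10.9, 50.2 and 9.03 CPM in high dye, against 11.2, 4.49, 21.3 and 8.01 CPM in ungated replicates 1 to 4, a log2 fold change of 1.06 ± 0.16 (adjusted p = 0.00137 in edgeR). ATF3 was highest in replicate 3 in both groups, so its values overlapped although every pair was higher in high dye, as the naming rule required.

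NUPR1, a small stress-induced nuclear protein, and DDIT4, an inhibitor of the growth kinase mTORC1, were both at low levels. NUPR1 changed by 1.74 ± 0.37 and DDIT4 by 0.99 ± 0.21 on the log2 scale, and each was higher in 4 of 4 pairs. NUPR1 averaged 3.003 ± 2.20 CPM in high dye and 0.839 ± 0.780 CPM in ungated libraries (SD, n = 4 each), with high dye replicate 3 at the top. Of the 24 genes 8 or 6 passed when high dye replicate 1 or 3 was left out, 10 without ungated replicate 1, 10 without ungated replicate 3 and 7 with the 8 compared libraries alone. The median was 0.40 without ungated replicate 3.

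Oxidant defence and iron storage genes rose in part. In the NRF2 and iron list 11 of 26 genes were higher and 0 lower (median 0.34), made up of 9 of 18 NRF2 targets and 2 of 8 genes of iron storage and transport. The 2 genes of iron storage that rose were the ferritin chains. HMOX1, the heme oxygenase that releases iron from heme (ENSG00000100292, chromosome 22, 35380361 to 35394214), stood at 119, 45.9, 76.7 and 15.6 CPM in high dye, against 43.5, 21.2, 8.38 and 15.01 CPM in ungated replicates 1 to 4. In replicate 4 the groups were level and in replicate 3 they were furthest apart, so that the log2 fold change of 1.40 ± 0.31 (adjusted p = 0.0129 in edgeR) averages unequal pairs. In edgeR's test HMOX1 was not called when high dye replicate 1 or 3 was left out, at an adjusted p of 0.0860 and 0.0640.

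SQSTM1, the autophagy receptor p62 that also holds NRF2's inhibitor KEAP1 (ENSG00000161011, chromosome 5, 179806398 to 179838078), was at 408, 216, 391 and 188 CPM in high dye, against 171, 124, 125 and 143 CPM in ungated replicates 1 to 4, with no overlap, and changed by 1.02 ± 0.16 (adjusted p = 0.00137 in edgeR). FTH1, the ferritin heavy chain, was at 344, 188, 262 and 156 CPM in high dye, against 146, 128, 77.3 and 107 CPM in ungated replicates 1 to 4, a log2 fold change of 0.98 ± 0.16. Its groups did not overlap, and the light chain FTL changed by 0.78 ± 0.12. Both ferritin genes have many processed pseudogenes, so their counts are uncertain to the extent that reads were split. ABCC3, an exporter of organic anions, rose by 1.49 ± 0.24 on the log2 scale. AKR1C1, an aldo-keto reductase, was not a member of this list. It stood at 41.3, 8.68, 15.1 and 2.76 CPM in high dye, against 18.7, 2.73, 0.998 and 1.36 CPM in ungated replicates 1 to 4. Its level differed more between replicate numbers than between groups. The log2 fold change of AKR1C1 was 1.69 ± 0.26 (adjusted p = 0.00136 in edgeR), and it shares most of its sequence with AKR1C2, so reads could be split between them. Of the 26 genes of the NRF2 and iron list 4 or 5 passed when high dye replicate 1 or 3 was left out. The count was 7 without ungated replicate 3 and 5 with the 8 compared libraries alone.

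**Figure D3:**
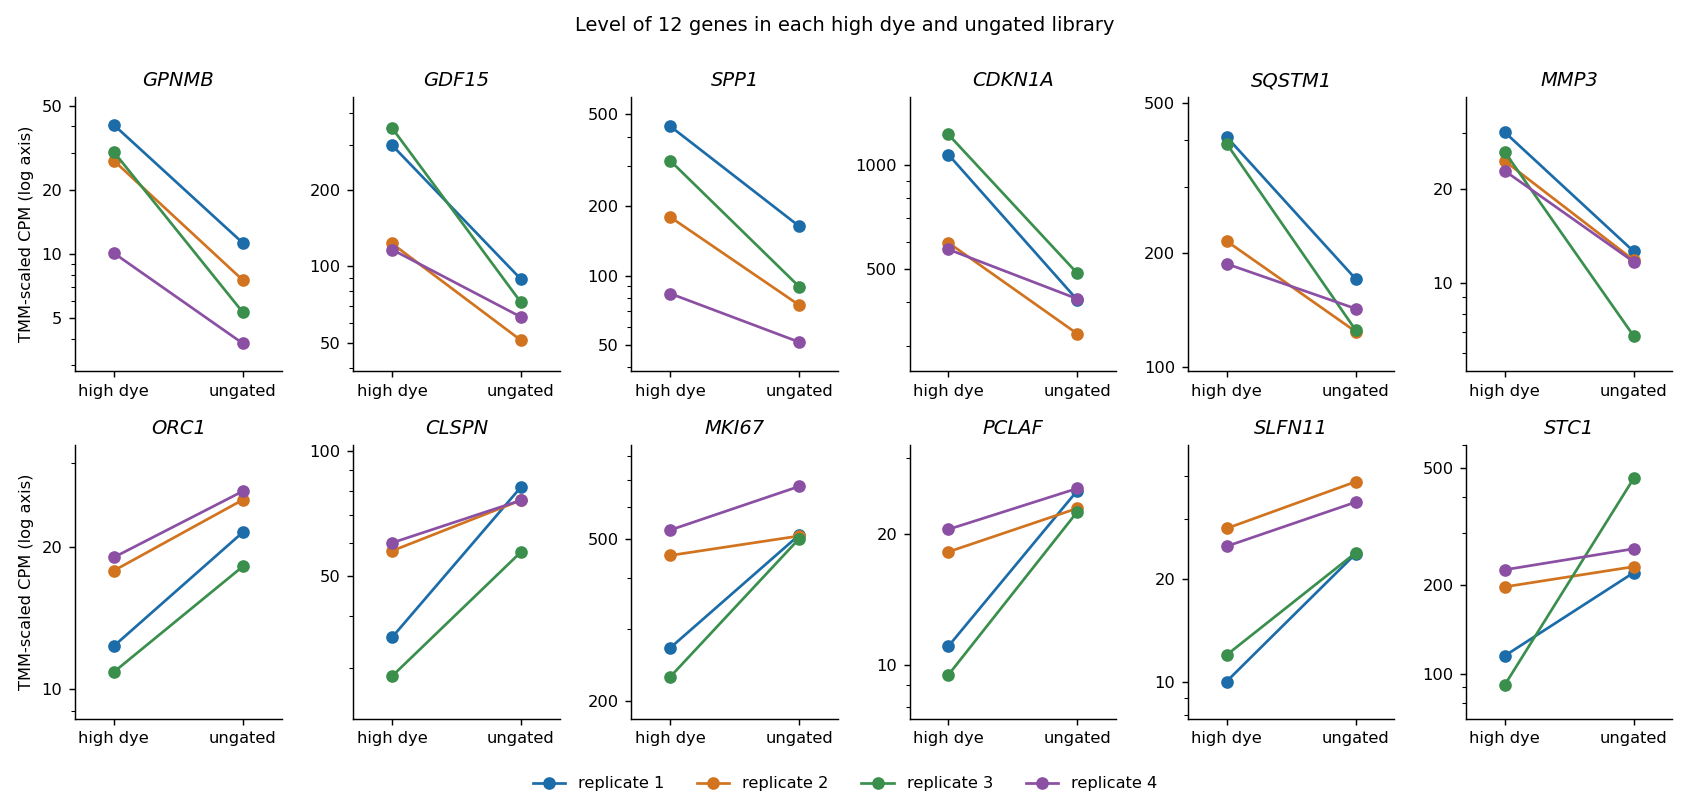
TMM-scaled CPM (log axis) of 12 genes in the 4 high dye (left) and 4 ungated (right) libraries, with lines joining libraries of 1 replicate number. All lines of GPNMB, GDF15, SPP1, CDKN1A, SQSTM1 and MMP3 run down to the ungated side and all those of ORC1, CLSPN, MKI67, PCLAF, SLFN11 and STC1 run up. Apart from ORC1 and MKI67, these genes were picked by a rule that required 1 direction in all 4 pairs, so their agreement was set by the choice. In the cell cycle genes high dye replicates 1 and 3 lie lowest (12.3 and 10.9 CPM for ORC1, 270.0 and 229 CPM for MKI67).

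GPNMB, a glycoprotein of lysosomal and melanosomal membranes (ENSG00000136235, chromosome 7, 23235967 to 23275108), had the largest change of the genes named by the rule. It was at 40.7, 27.6, 30.3 and 10.1 CPM in high dye, against 11.3, 7.54, 5.32 and 3.80 CPM in ungated replicates 1 to 4. Every pair was higher in high dye, as that rule required, and the only overlap was high dye replicate 4 lying below ungated replicate 1. The log2 fold change was 1.91 ± 0.19, or 3.75-fold, with an edgeR adjusted p of 4.21e-05, and 1.70 without ungated replicate 3. The melanocyte and Schwann cell markers, genes of cells that also carry GPNMB, summed to 1.67 to 6.21 CPM in high dye and 1.98 to 3.52 CPM in ungated libraries over 10 genes, with 6 of them under 1 CPM in all 8 libraries and 1 at 0. Their part in the result was not tested. Other lysosomal genes changed little. Of 46 lysosomal genes 11 rose and 0 fell, with a median of 0.16, spread over 6 of 21 hydrolases and activators, 3 of 12 membrane proteins and regulators, and 2 of 13 subunits of the proton pump. Next to GPNMB the largest were PSAP, the precursor of the saposins (0.44 ± 0.07), TPP1, a tripeptidyl peptidase (0.43 ± 0.08), and CTSA, cathepsin A (0.37 ± 0.06). The list count was 4 when high dye replicate 1 or 3 was left out, 5 without ungated replicate 1 and 6 without ungated replicate 3.

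Calls among secreted factors were mostly higher. Of 35 tested genes of the list 8 rose (22.9%, against 3.66% of all genes tested), with a median of 0.15. The 2 that fell (5.71%) were near the share of all genes tested (3.93%). SPP1, the secreted phosphoprotein osteopontin (ENSG00000118785, chromosome 4, 87975650 to 87983426), stood at 445, 179, 315 and 83.5 CPM in high dye, against 164, 74.4, 89.4 and 51.4 CPM in ungated replicates 1 to 4, a log2 fold change of 1.33 ± 0.19 (adjusted p = 0.000842 in edgeR). The order of the replicates was the same in both groups, with replicate 1 highest and replicate 4 lowest, and the ranges overlapped. MMP3, the protease stromelysin-1 (ENSG00000149968, chromosome 11, 102835801 to 102843803), was at 30.2, 24.5, 26.1 and 22.8 CPM in high dye, against 12.6, 11.8, 6.78 and 11.7 CPM in ungated replicates 1 to 4, with no overlap and the lowest value in ungated replicate 3. Its log2 fold change was 1.25 ± 0.25 (adjusted p = 0.00889 in edgeR), and 1.01 without that library. The chemokine CXCL2 rose by 0.91 ± 0.17 and IGFBP3, which binds insulin-like growth factors, by 0.74 ± 0.15 on the log2 scale.

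STC1, the secreted glycoprotein stanniocalcin-1 (ENSG00000159167, chromosome 8, 23841915 to 23854807), had the lowest log2 fold change among the genes named by the rule. It was at 115, 198, 91.8 and 226 CPM in high dye, against 221, 231, 461 and 266 CPM in ungated replicates 1 to 4. Ungated replicate 3 was far above all other libraries, and the log2 fold change of -0.99 ± 0.24 (adjusted p = 0.0192 in edgeR) was -0.50 without it (adjusted p = 0.0336). MMP1, the interstitial collagenase, averaged 9245 ± 3022 CPM in high dye and 11932 ± 3476 CPM in ungated libraries (SD, n = 4 each) and was lower in 4 of 4 pairs, with a log2 fold change of -0.37 ± 0.09 (adjusted p = 0.0192 in edgeR, and 0.0605 without ungated replicate 3). Thus the proteases MMP3 and MMP1 moved in opposite directions. When high dye replicate 1 or 3 was left out, 2 and 4 of the 35 secreted factors were called higher (5 without ungated replicate 1), and edgeR called neither STC1 nor MMP1.

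PAPPA2, a protease that cleaves binding proteins of insulin-like growth factors (ENSG00000116183, chromosome 1, 176463171 to 176845605), stood at 41.4, 16.4, 10.3 and 2.01 CPM in high dye, against 17.995, 4.12, 0.798 and 0.593 CPM in ungated replicates 1 to 4. Its level spanned a wide range between replicates in both groups. Each high dye library was above its partner, as the naming rule required, and the log2 fold change was 1.82 ± 0.22 (adjusted p = 0.000273 in edgeR). EPGN, epigen, a ligand of the EGF receptor, changed by 1.07 ± 0.23 with an edgeR adjusted p of 0.0104, which became 0.0764 or 0.0561 when high dye replicate 1 or 3 was left out.

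Matrix and contractile genes rose in smaller number. The list of collagens and matrix proteins had 7 higher and 0 lower of 32 (median 0.11), and 1, 0, 1 and 4 were higher without high dye replicate 1, high dye replicate 3, ungated replicate 1 and ungated replicate 3, and 12 without high dye replicate 2. COL11A1, a fibrillar collagen chain, changed by 0.58 ± 0.14, POSTN, the matrix protein periostin, by 0.56 ± 0.12, THBS1, thrombospondin-1, by 0.44 ± 0.11 and COL4A1, a basement membrane collagen, by 0.42 ± 0.10 on the log2 scale. COL1A1, the main fibrillar collagen of skin fibroblasts, averaged 3384 ± 532 CPM in high dye and 3260.0 ± 295 CPM in ungated libraries (SD, n = 4 each) and was not called (log2 fold change 0.04 ± 0.08, edgeR adjusted p = 0.783). Among 17 contractile genes 6 rose and 0 fell (median 0.27), with 3 higher without high dye replicate 1 and 6 without ungated replicate 3. ITGA11, the collagen-binding integrin alpha 11, was at 42.3, 36.1, 74.5 and 28.1 CPM in high dye, against 17.1, 23.1, 28.5 and 18.8 CPM in ungated replicates 1 to 4, highest in replicate 3 of each group, and changed by 1.01 ± 0.18 (adjusted p = 0.00380 in edgeR). ACTA2, smooth muscle actin, stood at 16.02, 16.2, 102 and 80.3 CPM in high dye, against 8.20, 13.5, 51.1 and 64.2 CPM in ungated replicates 1 to 4. For ACTA2 the replicate numbers differed several times more than the groups did, and the log2 fold change was 0.62 ± 0.12.

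Several lower genes outside the cell cycle lists were named by the rule. SLFN11, which blocks stressed replication forks (ENSG00000172716, chromosome 17, 35350305 to 35373701), stood at 10.1, 28.1, 12.02 and 24.95 CPM in high dye, against 23.7, 38.5, 23.9 and 33.6 CPM in ungated replicates 1 to 4, a log2 fold change of -0.72 ± 0.13 (adjusted p = 0.00445 in edgeR, and 0.00123 to 0.0328 when each library was left out in turn). Its groups overlapped, since replicates 2 and 4 were higher than 1 and 3 on both sides. SOX21, a transcription factor gene of the SOX family, and its neighbour on the opposite strand SOX21-AS1 were lower together, at -0.93 ± 0.22 and -0.85 ± 0.21 on the log2 scale. Their annotated spans do not overlap (chromosome 13, 94709622 to 94712399 for SOX21 and 94712716 to 94716246 for SOX21-AS1). Both changes were smaller without ungated replicate 3, at -0.62 and -0.52. The long non-coding RNA LINC00707 changed by -0.84 ± 0.16, NPTX1, a secreted pentraxin of neurons, by -0.80 ± 0.17, and PTN, the growth factor pleiotrophin, by -0.67 ± 0.15. NPTX1 was -0.50 without ungated replicate 3. SYNE2, nesprin-2 of the nuclear envelope, changed by -0.66 ± 0.17 and SAPCD2 by -0.66 ± 0.16, and edgeR did not call SOX21, SOX21-AS1, NPTX1, PTN, SYNE2 or SAPCD2 when high dye replicate 1 or 3 was left out. SYNE2 and SAPCD2 were also lost without ungated replicate 1 (adjusted p = 0.0885 and 0.0525 in edgeR), and SYNE2 without ungated replicate 3 (0.0595).

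Few growth and energy genes were called. Of 22 MYC targets of ribosome biogenesis, 0 were called by edgeR and by DESeq2, with 4 lower at an unadjusted p under 0.05 and a median of -0.06. Of 30 nuclear genes of oxidative phosphorylation 0 were called by either tool, with 1 higher and 1 lower unadjusted (median 0.01). Among 50 ribosomal protein genes 1 rose, RPL26 (0.30 ± 0.08), which has many pseudogenes. Glycolysis genes had 1 lower of 22, the lactate dehydrogenase chain LDHA (-0.27 ± 0.06). The immediate early and ERK feedback list split into 3 higher, among them JUNB (0.39 ± 0.09), a subunit of the AP-1 factor, and 3 lower. Its 11 ERK feedback genes also went both ways. Of these, DUSP1 rose (0.26 ± 0.06), while the ERK pathway inhibitors SPRY2 (-0.28 ± 0.07) and SPRED1 (-0.24 ± 0.06) fell. Replication-dependent histone genes, which make mostly non-polyadenylated messages, had 3 higher of 20 tested, out of 40 measured and 43 listed. Their levels are therefore uncertain. By edgeR 0 genes of the ribosomal protein, glycolysis, immediate early or histone lists passed when high dye replicate 1 or 3 was left out. RPL26, the 3 histone genes and the 3 higher genes of the immediate early and ERK feedback list were also lost without ungated replicate 1.

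Of 19 interferon-stimulated genes tested, 0 were called by edgeR or DESeq2, with 1 higher and 3 lower unadjusted, and the median log2 fold change was -0.33. The mean log2 CPM of these genes was 2.38, 2.97, 2.57 and 2.43 in high dye and 2.37, 2.96, 3.74 and 2.23 in ungated replicates 1 to 4. Ungated replicate 3 was thus the highest of the 8 libraries, the pair median was -1.05 in replicate 3 and 0.05 to 0.15 in the other pairs, and the median of the fit was 0.14 without that library.

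Among genes tied to the line and to reprogramming, 2 were called. TERT, whose counts may include the introduced hTERT, stood at 1623, 769, 2039 and 826 CPM in high dye, against 1432, 789, 732 and 605 CPM in ungated replicates 1 to 4. It was higher in high dye in 3 of 4 pairs and was not called (log2 fold change 0.50 ± 0.18, edgeR adjusted p = 0.0884), with an adjusted p of 0.0483 to 0.344 as each library was left out, below 0.05 only without ungated replicate 2. KDM1A, the histone demethylase LSD1, was at 129, 147, 109.6 and 151 CPM in high dye, against 159, 164, 148 and 151 CPM in ungated replicates 1 to 4, a log2 fold change of -0.22 ± 0.07 with an edgeR adjusted p of 0.0472. The KDM1A call was lost when any library other than high dye replicate 4 was left out, at an adjusted p of 0.0505 to 0.227. HDAC2, a histone deacetylase that partners LSD1, changed by -0.18 ± 0.05, and with KDM1A it made up the 2 lower of 23 genes in the reprogramming and chromatin list. DOT1L, the histone H3 lysine methyltransferase, averaged 44.02 ± 2.61 CPM in high dye and 46.4 ± 5.80 CPM in ungated libraries, and MYC averaged 70.6 ± 4.16 and 76.8 ± 7.72 CPM in the same order (SD, n = 4 each). Neither was called, with adjusted p of 0.702 for DOT1L and 0.223 for MYC in edgeR's quasi-likelihood test.

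Neuronal markers held 4 higher and 0 lower of 13 tested, with 3 of the 13 below 0. SCG5, the chaperone 7B2 of prohormone convertase 2 (ENSG00000166922, chromosome 15, 32641676 to 32697098), was at 37.2, 10.9, 24.1 and 4.66 CPM in high dye, against 15.4, 4.23, 7.58 and 3.62 CPM in ungated replicates 1 to 4, a log2 fold change of 1.25 ± 0.18 (adjusted p = 0.000977 in edgeR). High dye replicate 4 was only slightly above its partner, and the groups overlapped. ASTN2, an astrotactin membrane protein, was at 7.77, 6.90, 6.85 and 5.86 CPM in high dye, against 3.44, 3.21, 3.79 and 3.32 CPM in ungated replicates 1 to 4. The values of ASTN2 varied little within either group and did not overlap, and the log2 fold change was 0.99 ± 0.13 (adjusted p = 0.000612 in edgeR). VGF, a neurosecretory protein, changed by 1.90 ± 0.35 from a low level (1.75 ± 1.10 CPM in high dye and 0.452 ± 0.353 CPM in ungated libraries), and UCHL1, a deubiquitinase, by 0.28 ± 0.06. The summed level of the 20 listed markers was 926 to 1407 CPM in high dye and 813 to 1176 CPM in ungated libraries, with 7 under 1 CPM in all 8 libraries and 1 at 0. Most of this sum was UCHL1, with means of 788 CPM in high dye and 644 CPM in ungated libraries, and NEFM, with 305 and 274 CPM. The part of other cells in these values was not tested.

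The size of the difference varied with the replicate number. For DNA replication genes the median log2 ratio of high dye to ungated within a pair was -0.78 in replicate 1 and -0.71 in replicate 3, but -0.20 in both replicates 2 and 4. Mitosis genes followed with -0.85, -0.08, -0.86 and -0.18 in replicates 1 to 4. p53 targets stood at 0.57, 0.40, 0.54 and 0.17, so that replicate 2 was nearer to replicates 1 and 3 for these than for the cell cycle genes. The integrated stress response list gave 0.56, 0.38, 0.92 and 0.13, and the NRF2 and iron list 0.40, 0.29, 0.63 and 0.06. Replicate 4 had the smallest ratio in all 3 stress lists. The ratios are descriptions without a test, since each pair holds 1 library of each group.

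**Figure D4:**
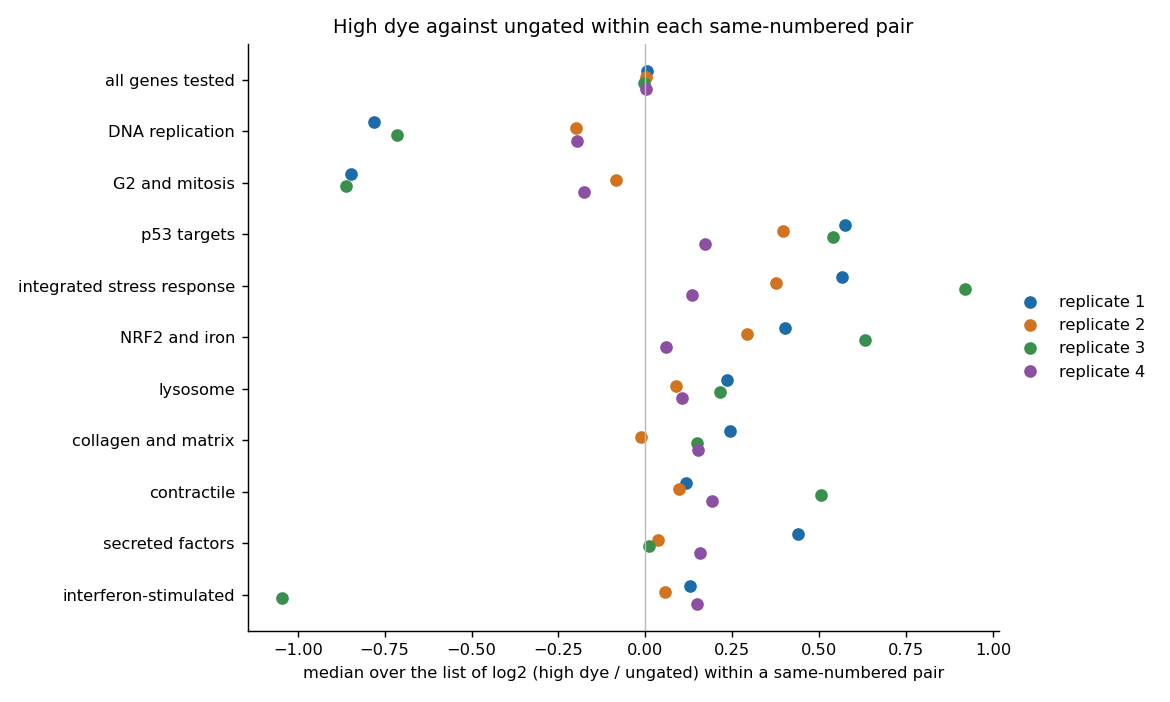
Median log2 ratio of high dye to ungated within each same-numbered pair, for all genes tested and 10 gene lists, with 1 point per replicate number. Replicates 1 and 3 lie at -0.86 to -0.71 for the cell cycle lists and replicates 2 and 4 at -0.20 to -0.08, while the interferon list has a single point far to the left, replicate 3 at -1.05.

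The other gates show where high dye lies in the sort. These comparisons share the ungated or the high dye libraries, so their values are given side by side and are not independent. In midhigh against ungated cells edgeR called 0 genes, with 1657 at an unadjusted p under 0.05 (DESeq2 was not run for it), and the median of DNA replication genes was -0.23 and of p53 targets 0.13, against -0.46 and 0.44 in high dye against ungated cells. In low dye against ungated cells the medians were 0.39 for DNA replication genes, 0.23 for mitosis genes and -0.39 for p53 targets. They were closer to 0 there for the integrated stress response (-0.10) and for NRF2 and iron (-0.09). In low dye 524 genes were higher (3.59%) and 1051 lower (7.2%) than in ungated cells, and in midlow against ungated cells 4 genes were called (0.0274%), all lower.

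The direct test of high against midhigh dye, which equals the difference between their effects against ungated cells, called 2 genes (0.0137% of those tested), both higher in high dye. GPNMB averaged 27.2 ± 12.7 CPM in high dye and 8.82 ± 3.78 CPM in midhigh dye (SD, n = 4 each), a log2 difference of 1.57 ± 0.19 with an edgeR adjusted p of 0.000771. VWCE, a secreted protein with von Willebrand factor and EGF domains, lay under the level set for naming genes and was singled out after its values were seen, averaging 2.19 ± 1.14 CPM in high dye, against 0.689 ± 0.452 CPM in midhigh dye, a log2 difference of 1.66 ± 0.28 (adjusted p = 0.0435 in edgeR). The count was 63 without high dye replicate 4 and 23 without ungated replicate 3, and was 1 without high dye replicate 1, high dye replicate 3, ungated replicate 2 or ungated replicate 4.

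A second test asked whether the step from ungated to high dye differed from the step from low dye to ungated on the log2 scale. It called 2 genes, IGFBP5 and TMEM132B, or 0.0137% of those tested, both with a smaller upper step. IGFBP5, a binding protein of insulin-like growth factors (ENSG00000115461, chromosome 2, 216672105 to 216695525), averaged 8.76 ± 5.71 CPM in low dye, 21.4 ± 9.24 in midlow, 54.3 ± 19.5 in midhigh and 49.6 ± 19.9 in high dye, with 41.98 ± 21.2 CPM in ungated cells (SD, n = 4 each). Its upper step was 0.27 ± 0.15, not called, while low dye against ungated stood at -2.29 ± 0.18, and the difference of the steps was -2.02 ± 0.28 (adjusted p = 0.00606 in edgeR). TMEM132B, a transmembrane protein gene (ENSG00000139364, chromosome 12, 125186836 to 125662377), had an upper step of 0.50 ± 0.17 and stood at -2.58 ± 0.22 in low dye against ungated cells, with a difference of -2.08 ± 0.33 (adjusted p = 0.0232 in edgeR). On the log2 scale ungated cells thus lay nearer to high than to low dye for these 2 genes, whereas GPNMB had steps of similar size on either side, at 1.91 for high dye and -2.11 for low dye against ungated cells. The count was 1 without high dye replicate 2 or 3.

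**Figure D5:**
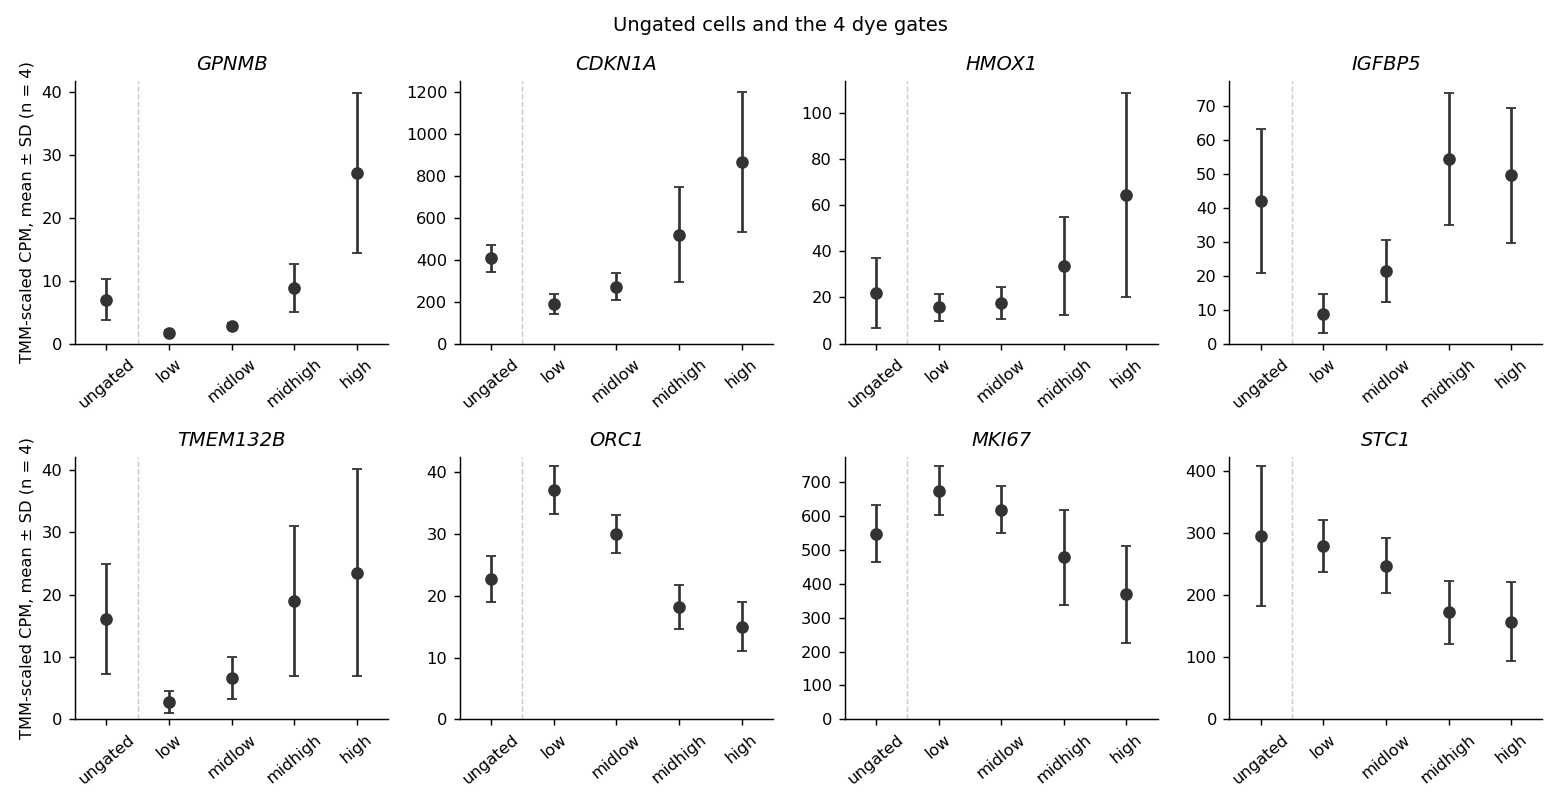
Mean ± SD (n = 4) of TMM-scaled CPM for 8 genes in ungated cells and in the low, midlow, midhigh and high dye gates. GPNMB stands apart in high dye (27.2 ± 12.7 CPM, against 8.82 ± 3.78 CPM in midhigh dye), IGFBP5 is already near its high dye level in midhigh and ungated cells, and ORC1 and MKI67 are lowest in high dye.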

How the data were processed

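The deposited values are whole read counts per gene, made by the authors with STAR and HTSeq on hg38 (GRCh38), per the submitters' processing notes, while versions and settings are not given in the sources used here. Libraries were poly(A) selected and prepared with a kit that records no strand, per the labels' protocols. Counts in no gene (5.31% to 6.44% of a library in the no-feature class) were left out of library sizes. Of 58302 gene identifiers 57532 were given a symbol from the reference tables.

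Counts of the 20 sort libraries were fitted together with edgeR 4.0.16 (R 4.3.3, limma 3.58.1), using TMM scaling, filterByExpr at a minimum count of 10, group and replicate number as terms, and the quasi-likelihood F test with Benjamini-Hochberg adjustment over all genes tested. Standard errors (SE) are the log2 fold change divided by the root of F, and CPM are TMM-scaled. The procedure was checked on simulated counts. Their changes were equal in all replicates, unlike here, so the check does not give the rate of false calls in these data. Alternatives were DESeq2 1.42.0, other scalings and filters, no block, the 8 compared libraries alone, and leaving out libraries. The labels say that replicates are biological but not what was kept separate, so p-values measure the spread between these libraries. No library pair of a group agreed within sampling noise (chi-square per degree of freedom at least 18.5 within the high dye and ungated groups and at least 8.22 among all 20 libraries).

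Replicate numbers come from the labels. After removal of group means, the 40 same-numbered library pairs correlated at 0.146 to 0.618, all above 0.1. The 120 other pairs lay at -0.473 to 0.288, with 16 of them above 0.1. Low dye replicate 3 correlated more with ungated replicate 4 (0.288) than with ungated replicate 3 (0.146). The same held for midlow dye replicate 3 (0.232 and 0.181). The numbers were taken to pair the libraries, with the least support for ungated replicate 3.

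The named genes are the 12 largest and 12 lowest log2 fold changes among called genes with a mean of at least 10 CPM and 1 direction in all 4 pairs, up to 4 called genes per list and direction, up to 6 genes per direction for the other contrasts, and 16 genes named whatever their result. The members and the 31 gene lists were chosen with earlier results of these data known, so their directions are not independent evidence. The result of a further list is not reported here.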

Additional observations from a re-analysis of the deposited data

Results flagged for a closer look

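In 72 groups of 4 libraries (36 genes), 8 had a library whose gap to the nearest of the others, as a share of the group's range, was above Dixon's 95% critical value, and chance gives about 1 in 20 groups. In high dye cells these were replicate 4 for MYC (0.971), at 72.7, 72.9, 72.6 and 64.4 CPM in replicates 1 to 4, and replicate 4 for DOT1L (0.856), at 42.3, 42.9, 43.1 and 47.9 CPM. In ungated cells replicate 3 stood apart for MYC (0.885), at 72.7, 72.2, 88.3 and 74.03 CPM, and for MMP3 (0.842), at 12.6, 11.8, 6.78 and 11.7 CPM. Ungated replicate 4 stood apart for MKI67 (0.939), at 512, 509, 501 and 674 CPM, for TOP2A (0.881), at 502, 504, 511 and 579 CPM, and for COL1A1 (0.908), at 3379.6, 3436, 3405 and 2819 CPM. Ungated replicate 1 stood apart for AKR1C1 (0.902), at 18.7, 2.73, 0.998 and 1.36 CPM. The ungated values of MKI67 and TOP2A in replicates 1 to 3 were thus nearly equal, while their high dye values in the same replicates ranged from 229 to 456 CPM and from 262 to 509.6 CPM.

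In 4 genes an effect differed between gates by a direct test. GPNMB (1.57 on the log2 scale) and VWCE (1.66) were higher in high than in midhigh dye, which is also the difference of both gates' effects against ungated cells. VWCE stood at 3.04, 1.62, 3.24 and 0.862 CPM in high dye and 0.802, 0.214, 0.532 and 0.237 CPM in ungated replicates 1 to 4, with no overlap. IGFBP5 (-2.02) and TMEM132B (-2.08) had a smaller step above ungated cells than below them. TMEM132B was at 46.3, 23.99, 16.6 and 7.30 CPM in high dye and 24.1, 16.4, 20.1 and 3.74 CPM in ungated replicates 1 to 4, and its high dye effect was 0.50 ± 0.17 (adjusted p = 0.0770 in edgeR) with all libraries and 0.80 (adjusted p = 0.00221) without ungated replicate 3.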

How the results depend on the processing

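Counts below are genes higher and lower in high dye than in ungated cells, 534 and 573 as reported. Without the replicate block they were 1 and 0, also when ungated replicate 3 was left out (1 and 0). With the block they were 153 and 67 with the 8 compared libraries alone, 155 and 76 with the 7 left without ungated replicate 3, a choice made after seeing the data, and 211 and 164 without all libraries of number 3. Leaving out 1 of the 8 libraries gave 82 to 722 higher and 14 to 944 lower. With no filter on low counts 867 were lower, among 38399 tested. DESeq2 (586 and 691), RLE factors, library size alone and a filter of 1 CPM in 4 libraries kept both counts within 1.5 times. High against midhigh dye, 2 genes as reported, gave 0 without the block (375 at an unadjusted p under 0.05 in edgeR), 0 when ungated replicate 3 was also left out (384), 38 without number 3, 19 with DESeq2, 251 with no filter, and 1 to 63 when 1 library was left out. The difference between the upper and lower step, 2 genes as reported, gave 0 without the block (350 unadjusted), 0 with ungated replicate 3 also out (193), 222 with no filter, 3 with DESeq2 and 1 to 3 when 1 library was left out. These 2 comparisons need the other gates and could not be had from the 8 libraries alone. COL1A1, not called, was at -0.02 without high dye replicate 4 and -0.0378 without ungated replicate 1, the lowest of a range up to 0.128 over the 8 libraries left out in turn. Of 32 called genes followed through the 18 alternatives, none changed sign, which is not independent evidence since the fits share most libraries. The block left 1 of them called when removed, and 15 stayed called in every fit that left out 1 library. The median of the interferon list changed sign in 4 alternatives, that of the fibroblast markers in 5. The causes of these shifts were not tested.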

Other observations

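Targets of TGF-beta and YAP, the factors through which fibroblasts respond to growth factor and tension, had 5 higher and 0 lower of 17 tested, against 3.66% and 3.93% of all genes. ANKRD1, a nuclear cofactor and YAP target, averaged 84.3 ± 58.4 CPM in high dye and 44.1 ± 31.9 CPM in ungated libraries (SD, n = 4 each), a log2 change of 0.85 ± 0.23 (SE). TGFBI, a secreted matrix protein, changed by 0.43 ± 0.10, PMEPA1, an inhibitor of TGF-beta signalling, by 0.42 ± 0.11 and CCN2, connective tissue growth factor, by 0.39 ± 0.12. By edgeR 0 of the 17 passed when high dye replicate 1 or 3 was left out, and 1 without ungated replicate 1 or 3.

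Genes of FOXO factors and quiescence had 4 higher and 1 lower of 13 tested (median 0.30). TSC22D3, the glucocorticoid-induced leucine zipper GILZ, changed by 0.60 ± 0.12, BCL6, a transcriptional repressor, by 0.50 ± 0.10, and FOXO1, a transcription factor, by 0.81 ± 0.23. RBL1, the pocket protein p107 and itself an E2F target, was lower at 27.2, 40.4, 22.2 and 41.5 CPM in high dye, against 53.6, 45.9, 42.7 and 50.7 CPM in ungated replicates 1 to 4, with no overlap (-0.57 ± 0.13). Higher calls numbered 2 or 1 when high dye replicate 1 or 3 was left out, and 2 without ungated replicate 1. Long non-coding RNAs had 3 higher and 0 lower of 13, among them NEAT1, the scaffold of paraspeckles (0.56 ± 0.15), and PURPL, a p53-regulated transcript (0.60 ± 0.18), and by edgeR 0 passed when high dye replicate 1 or 3 was left out and 1 without ungated replicate 1 or 4. Mesenchymal transcription factors had 2 lower of 17, PRRX1 (-0.46 ± 0.10) and TWIST2 (-0.35 ± 0.11), with 0 called by edgeR when high dye replicate 1 or 3 was left out and 1 without ungated replicate 2, 3 or 4. Heat shock genes had 2 higher, the chaperones CRYAB (0.67 ± 0.19) and DNAJB4 (0.34 ± 0.10), and 1 lower, the endoplasmic reticulum chaperone HSP90B1 (-0.23 ± 0.07), of 16, and by edgeR 0 passed when replicate 1 or 3 of either group was left out. Of 13 mitochondrially encoded genes 0 were called by edgeR or DESeq2 and 0 had an unadjusted p under 0.05.

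Epithelial markers summed to 134 to 339.57 CPM in high dye and 129 to 308 CPM in ungated libraries over 10 genes, and endothelial markers to 78.3 to 97.96 CPM in high dye and 74.7 to 107 CPM in ungated libraries over 9 genes. Most of the epithelial sum was KRT18, with means of 186 CPM in high dye and 169 CPM in ungated libraries. Most of the endothelial sum was TEK, with means of 81.2 and 81.8 CPM in the same order. In each list 5 genes were under 1 CPM in all 8 libraries, and 0 of the tested members were called or had an unadjusted p under 0.05 in edgeR, nor were any called by DESeq2.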
